A study of Mus musculus with 21 samples.

Results

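The skin of hairless mice at the end of 4 weeks of UV irradiation, when the dose per irradiation had climbed to 4 MED, was compared with unexposed skin from control week 1. MED is the minimal erythema dose, here 100 mJ/cm2. Members were chosen by the sample titles: 3 arrays of UV week 4 against 3 arrays of control week 1, 6 of the 21 arrays in the series, with all probe sets read on the log2 scale of the deposited intensities. The animals were female albino hairless Hos:HR-1 mice bought at 6 weeks of age, and dorsal skin was taken for total RNA. UV week 4 mice were irradiated 3 times a week with a lamp peaking in the UVB range. Control week 1 mice (arrays 12, 13 and 16) and control week 8 mice (arrays 51, 53 and 55) received no UV. UV week 1, UV week 2, UV week 6 and UV week 8 mice followed the same rising schedule, with the dose held at 4 MED once reached. The labels hold no unexposed group of week 4, so UV and the passing weeks cannot be told apart against control week 1 alone. Control week 8 lies on the other side of UV week 4 in age, and many of the results are given against it as well. For genes that do not move in 1 direction with age, such as those of the hair cycle, unexposed week 4 skin could lie outside both controls. There UV and the passing weeks cannot be told apart with both controls either. The interval between the last irradiation and sampling was not stated in the sources used here.

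UVB is absorbed mostly in the epidermis, where it damages DNA and releases cytokines. Repeated doses thicken the epidermis and disturb the dermal matrix, which is why irradiated hairless mice serve as a model of photoaging. Mouse hair follicles pass through growth (anagen), regression (catagen) and rest (telogen). Keratins of the hair shaft, the keratin-associated proteins that bind them together and the proteins of the inner root sheath are made in quantity only during anagen. Hairless mice shed their juvenile coat and keep rudimentary follicles, which still carry follicle RNA. Interferon-stimulated genes answer to type I and type II interferons, and the chemokines Cxcl9, Cxcl10 and Cxcl11 draw in lymphocytes that carry the receptor Cxcr3.

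The 7 promoters printed here belong to genes that carry the 2 main groups of changes described below, one higher and one lower at UV week 4. Sequences come from the RefSeq promoter table of build GRCm38.p6, run 5′ to 3′ towards the transcription start and end at its last upstream base. Capitals mark matches, on either strand, to GAAANNGAAA, the core of the interferon-stimulated response element, in the first 4. In Oas1a 2 matches overlap. These segments lie at chr19:34640765-34640888 on the plus strand for Ifit1, chr5:120907526-120907565 on the minus strand for Oas1a, chr11:58199502-58199555 on the plus strand for Igtp and chr5:92348890-92349122 on the minus strand for Cxcl10.
Ifit1: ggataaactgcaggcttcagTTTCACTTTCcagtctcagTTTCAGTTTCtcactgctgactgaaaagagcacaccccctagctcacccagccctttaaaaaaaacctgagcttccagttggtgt
Oas1a: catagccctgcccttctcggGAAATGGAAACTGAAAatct
Igtp: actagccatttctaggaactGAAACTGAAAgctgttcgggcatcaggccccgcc
Cxcl10: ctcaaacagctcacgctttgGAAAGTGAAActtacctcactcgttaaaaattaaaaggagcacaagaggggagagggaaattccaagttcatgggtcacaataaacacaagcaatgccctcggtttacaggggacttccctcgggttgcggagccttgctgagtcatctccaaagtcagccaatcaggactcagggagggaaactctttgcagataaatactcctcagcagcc

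In the 3 hair promoters capitals mark CTTTGAA, the core bound by LEF1/TCF factors, again searched on both strands. They lie at chr11:100050552-100050801 on the minus strand for Krt31, chr11:100041555-100041804 on the minus strand for Krt34 and chr16:89571184-89571433 on the minus strand for Krtap11-1.
Krt31: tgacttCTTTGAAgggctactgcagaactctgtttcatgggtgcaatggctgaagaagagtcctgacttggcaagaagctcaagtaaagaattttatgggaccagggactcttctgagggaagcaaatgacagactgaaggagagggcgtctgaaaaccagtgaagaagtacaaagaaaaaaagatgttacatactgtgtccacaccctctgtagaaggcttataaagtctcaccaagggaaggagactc
Krt34: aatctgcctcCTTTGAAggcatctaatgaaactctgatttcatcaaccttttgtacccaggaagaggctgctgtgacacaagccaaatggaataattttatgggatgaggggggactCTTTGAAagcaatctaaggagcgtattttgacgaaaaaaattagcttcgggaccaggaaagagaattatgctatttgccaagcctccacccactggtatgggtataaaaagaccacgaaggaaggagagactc
Krtap11-1: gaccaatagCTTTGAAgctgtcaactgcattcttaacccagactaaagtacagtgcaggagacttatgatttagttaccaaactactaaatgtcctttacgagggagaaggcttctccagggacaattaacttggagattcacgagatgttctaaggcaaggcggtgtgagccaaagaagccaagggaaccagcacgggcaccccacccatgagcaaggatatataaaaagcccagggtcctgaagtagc
The interferon motif was present in the 250 bases before the start of 936 of 27025 genes, or 3.46%. It was present in 12 of the 25 interferon-stimulated genes found in the table, and in 4 of the 5 of them that rose at UV week 4 (Ifit1, Oas1a, Igtp and Irgm1). CTTTGAA was found in 5.19% of all such stretches. It was found in 4 of 7 hair shaft keratins (Krt31, Krt32, Krt33b and Krt34), 6 of 29 keratin-associated protein genes and 1 of 13 inner root sheath genes. These are matches of letters and no evidence of binding. CTTTGAA ends in the letters with which GAAANNGAAA begins, so matches to both could overlap.

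Replicate arrays correlated at 0.981 to 0.994 within control week 1 and at 0.992 to 0.993 within UV week 4. Epidermal, dermal and muscle RNA were all present. The lowest percentile rank over these arrays was 99.2 for Krt14, 99.9 for Col3a1 and 99.5 for Acta1, a skeletal muscle actin. The 3′ to 5′ ratio of the beta-actin control probe sets, a sign of RNA quality, was 4.74 log2 units on control array 12 and 4.05 on UV week 4 array 333, against 2.37 to 3.38 on the other 4 arrays. The main counts are also given without those 2 arrays. Of 25 skeletal muscle genes 24 lay below 0, against 7813 of 17403 over all genes. The muscle median difference was -0.52, and no muscle gene passed the test. The mean level of that list ran from 11.26 to 11.76 in control week 1 and from 10.74 to 11.12 at UV week 4. The part of muscle content in the results below was not tested.

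Levels are log2 intensities and differences are UV week 4 minus control week 1 in log2 units, with the standard error of the limma fit. Without regard to the controls, 171 probe sets fell and 73 rose by at least 2-fold at an adjusted p of 0.05 or less, which is 0.422% and 0.18% of 40540 tested. The study set aside probe sets that differed 1.5-fold between its control groups. This rule removed 133 of the lower and 33 of the higher probe sets. It left 38 lower (0.0955% of 39801) and 40 higher (0.1%), from 34 and 31 genes. Of the 145 lower genes before the rule, 56 were on the hair lists. Of the 34 after it, 1 was. The plot of significance against difference shows this split.

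**Figure D1:**
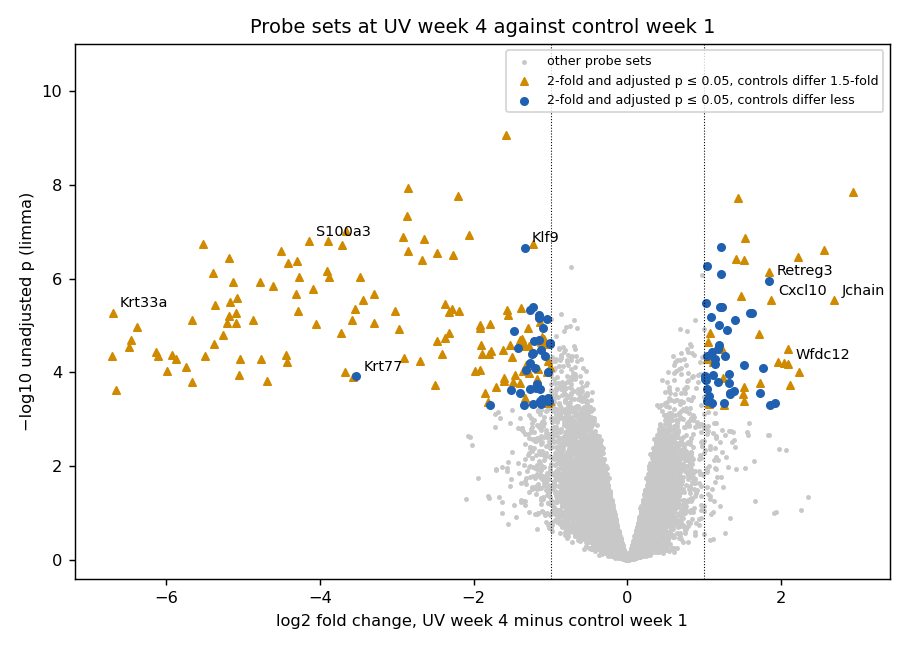
Each point is a probe set, with the log2 difference UV week 4 minus control week 1 on the x axis and the negative log10 of the unadjusted limma p on the y axis. Triangles mark the 166 probe sets that pass fold and p but differ 1.5-fold between the controls, and circles the 78 that do not. The points beyond 4 log2 units on the left are triangles.

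Where a gene had several probe sets, its brightest on average stands for it in the gene lists, and a member counts as changed at an adjusted p of 0.05 or less over all probe sets. By that rule 202 of 17403 genes fell (1.16%) and 90 rose (0.517%). The 45 lists held 915 measured genes, of which 69 fell and 27 rose, and 28 lists had at least 1 changed member. The share of genes with all 3 UV week 4 arrays below all 3 controls was 11.5% over all genes, and with all 3 above, 12.3%.

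**Figure D2:**
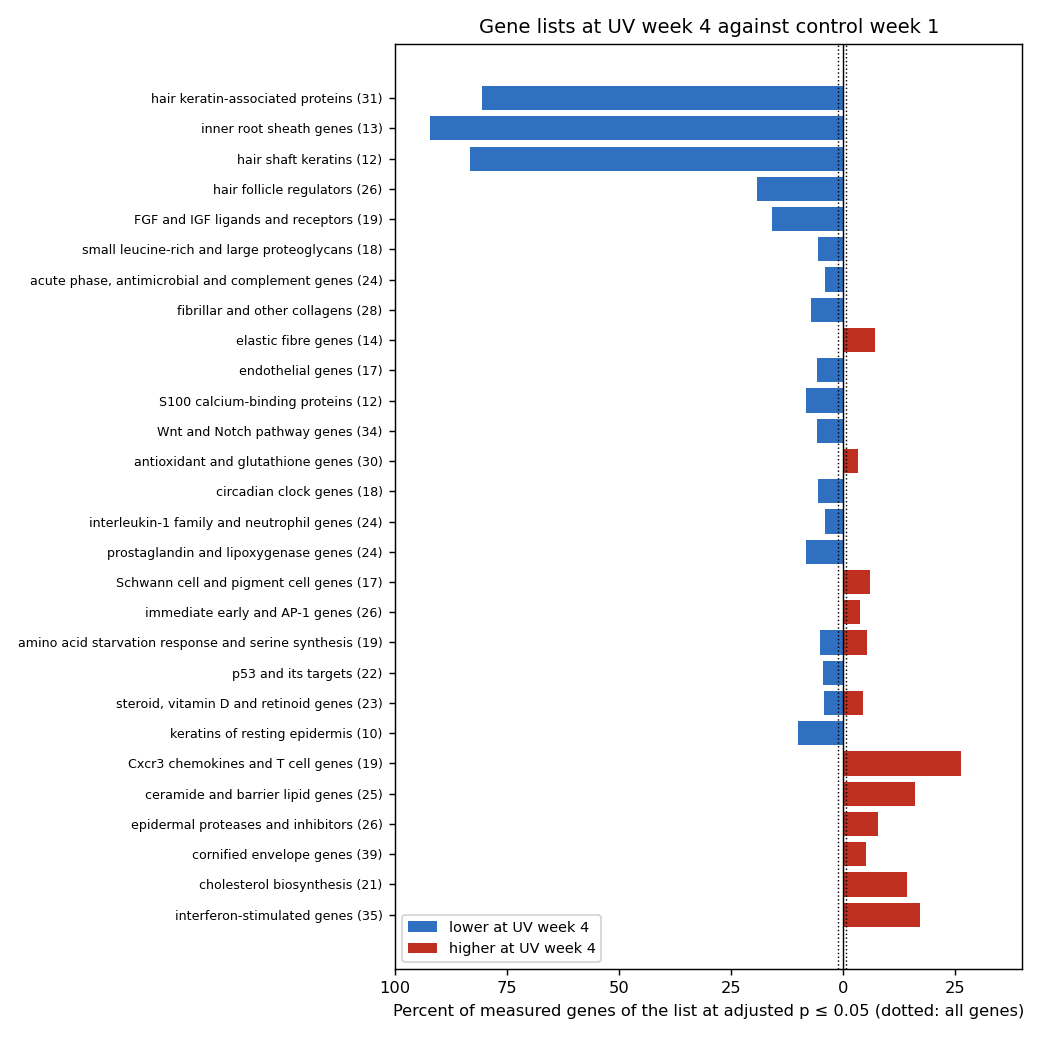
Bars give the percent of measured genes in each list (number measured in brackets) that were lower (left) or higher (right) in UV week 4 with an adjusted p no greater than 0.05, for the 28 lists with a changed member. Dotted lines mark the shares over all genes, 1.16% lower and 0.517% higher. The longest bars are the inner root sheath, hair shaft keratin and keratin-associated protein lists.

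Hair genes gave the widest differences. Among 12 measured hair shaft keratins 10 fell, with a median of -2.99 against 0.03 over all genes. Of 31 keratin-associated protein genes 25 fell (median -4.44), and of 13 inner root sheath genes 12 fell (median -3.88). None rose. The 2 shaft keratins that did not pass were Krt36 (-0.32) and Krt84 (-0.54), and the inner root sheath gene was the transcription factor Gata3 (-0.21). Probe sets of keratin-associated proteins can share sequence between near-identical family members, so single genes of that family are uncertain. In bulk skin, fewer follicle cells and less RNA per follicle cell cannot be told apart.

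Krt33a, a type I keratin of the hair cortex, read 12.26, 11.49 and 11.57 in control week 1. At UV week 4 it read 3.92, 2.96 and 8.34. The groups did not overlap, and array 334 stood far above the other UV week 4 arrays. The difference was -6.70 (SE 1.06, adjusted p = 0.0031). Arrays 331 and 333 read below the median of all their probe sets for Krt33a, Krt34, Krtap11-1 and Krtap4-1, so no fold is given for these genes. Krt34, another acidic cortex keratin, read 10.93, 10.12 and 10.06 against 4.05, 4.22 and 7.43, a difference of -5.14 (SE 0.73, adjusted p = 0.00114). Its promoter held 2 of the marked motifs. Among keratin-associated proteins, Krtap11-1 went from 10.46, 10.53 and 10.21 to 3.96, 3.74 and 6.93, and fell by 5.52 (SE 0.68, adjusted p = 0.000486). Krtap4-1 read 9.58, 9.58 and 9.43 against 3.02, 2.89 and 6.51. Array 334 was again the highest of the 3. The differences of Krtap6-5 (-6.70), Krtap16-3 (-6.66), Gm10228 (-6.48), Krtap15 (-6.46) and Gm11559 (-6.38) were of the same size.

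The inner root sheath, which moulds the growing shaft, had the same high array. Krt25 read 13.53, 13.12 and 13.01 in control week 1 and 6.68, 5.03 and 10.72 at UV week 4 (-5.74, SE 1.14, adjusted p = 0.0138). Krt71, its type II partner, read 11.28, 11.32 and 11.03 against 6.17, 5.72 and 8.80 (-4.31, SE 0.64, adjusted p = 0.00189). Trichohyalin (Tchh), which hardens the sheath and medulla, fell by 4.68 (SE 0.99, adjusted p = 0.0217) with array 334 at 11.65 and the other 2 at 7.25 and 6.42. Averaged over the 13 genes, the level was 9.95 to 10.31 on the control week 1 arrays and 5.45 to 7.72 on the UV week 4 arrays.

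**Figure D3:**
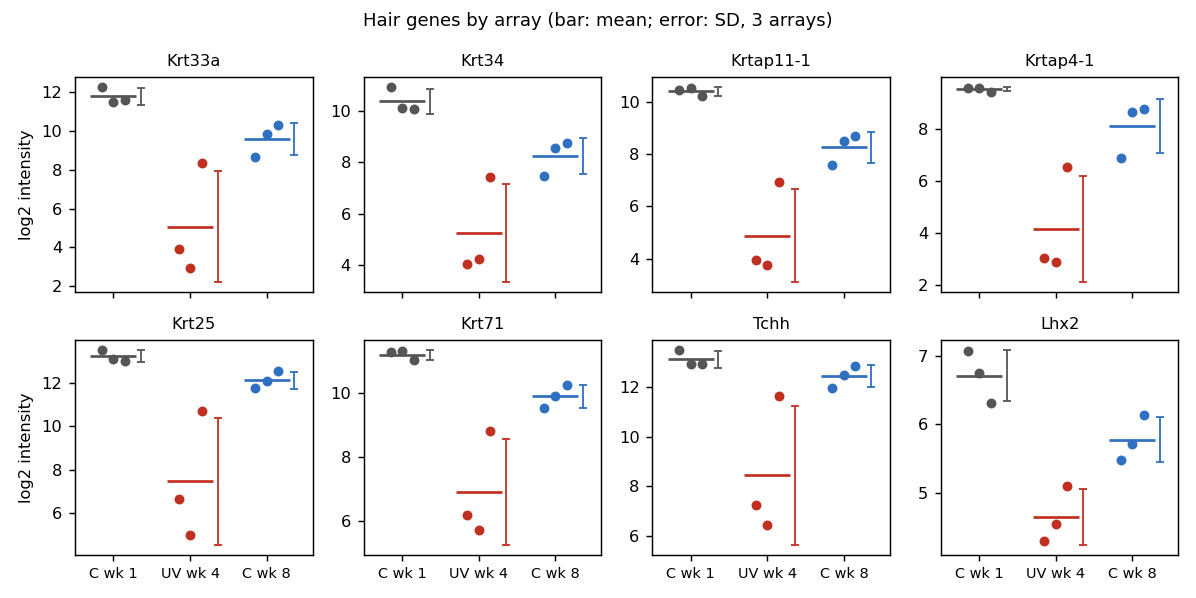
Log2 intensity of 8 hair genes on each array of control week 1, UV week 4 and control week 8; horizontal bars are means and vertical bars SD over 3 arrays. In each panel the 3 UV week 4 points lie below the 3 control week 1 points, and UV week 4 array 334 is the high point of its group.

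Genes that direct the follicle moved less. Of 26 hair follicle regulators 5 fell and none rose, with a median of -0.47. Lhx2, a homeobox factor of follicle stem cells and placodes, read 7.07, 6.75 and 6.32 in control week 1 and 4.30, 4.55 and 5.10 at UV week 4 (-2.06, SE 0.25, adjusted p = 0.000486). S100a3, a calcium-binding protein of the hair cuticle, fell by 4.15 (SE 0.51, adjusted p = 0.000486) from 8.77, 8.72 and 8.56 to 4.05, 3.56 and 6.00. Fgf5, the growth factor that ends anagen, fell by 2.32 (SE 0.37, adjusted p = 0.00301). Msx2 (-1.37) and Dlx3 (-1.10), homeobox genes of the hair matrix, fell as well. Fgf5, Msx2 and Dlx3 gave -0.19, -0.49 and -0.23 against control week 8, and none passed. Sonic hedgehog (Shh) at -1.11 (adjusted p = 0.276), Lef1 at -0.67 (adjusted p = 0.107) and Hoxc13 at -0.78 (adjusted p = 0.0577) did not pass.

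Control week 8 lay between. The median difference of control week 8 minus control week 1 was -1.61 for shaft keratins, -1.72 for keratin-associated proteins and -1.31 for the inner root sheath. Mean levels of the shaft keratins ran from 8.43 to 9.20 in control week 1, from 6.78 to 7.59 in control week 8 and from 5.08 to 6.61 at UV week 4. In UV week 2 they ran from 6.46 to 7.79, in UV week 6 from 6.64 to 7.10 and in UV week 8 from 5.14 to 6.52. For the shaft keratins UV week 4 thus lay below both controls with no overlap, and overlapped UV week 2 and UV week 8. These genes follow the hair cycle, so UV and the stage of the cycle at week 4 cannot be told apart. For the keratin-associated proteins UV week 4 (4.35 to 6.90) overlapped control week 8 (6.71 to 7.87). Against control week 8, where 0.552% of all genes fell and 0.19% rose at an adjusted p of 0.05 or less, 0 of 12 shaft keratins, 4 of 31 keratin-associated proteins, 5 of 13 inner root sheath genes and 3 of 26 regulators were lower. Krtap4-1 was lower than in control week 8 by 3.95 (adjusted p = 0.0198), and Lhx2 by 1.13 (adjusted p = 0.047). Krt33a at -4.51 (adjusted p = 0.0665) did not pass against that group. Leaving out 1 array at a time, the test called 10 shaft keratins, 15 to 26 keratin-associated proteins and 9 to 12 inner root sheath genes lower than in control week 1. Without arrays 12 and 333 the counts were 7, 5 and 9.

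Between the follicles most epidermal keratins did not pass the test. Of 10 keratins of resting epidermis 1 fell, Krt77, a type II keratin of suprabasal epidermis and sweat ducts. It read 12.09, 12.94 and 12.66 in control week 1, 9.74, 7.74 and 9.63 at UV week 4 and 13.14, 13.22 and 12.92 in control week 8. No UV week 4 array reached either control. The difference was -3.53 (SE 0.73, adjusted p = 0.0183) against control week 1, 11.5-fold, and -4.06 (adjusted p = 0.0144) against control week 8. Without array 13, 16 or 333 it no longer passed against control week 1, and its adjusted p over all settings ran from 0.00445 to 0.138. Krt1, the chief suprabasal keratin, differed by 0.58 (adjusted p = 0.572). Krt2, a keratin of late differentiation, differed by -0.75 (adjusted p = 0.0943) and was lower than in control week 8 by 1.34 (adjusted p = 0.00525).

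The keratins of wounded and hyperproliferative epidermis gave no change at this threshold. Krt6b read 11.19, 12.35 and 10.66 against 12.26, 11.39 and 12.28. Krt16 differed by 0.46 (SE 0.80, adjusted p = 0.88) and Krt17 by -0.38 (SE 0.49). The SE was about the size of the difference or above it. The 39 cell cycle and mitosis genes had a median of -0.03 and no changed member. Mcm4, a replication licensing factor, had the smallest p at 0.60 (adjusted p = 0.208).

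Some outer-layer genes rose. Lce1g and Lce1f, late cornified envelope proteins of the horny layer, rose by 1.19 (SE 0.21, adjusted p = 0.00781) and 0.52 (SE 0.11, adjusted p = 0.0222), 2 of 39 cornified envelope genes. Neither passed against control week 8. The list median was 0.43. Of 26 epidermal proteases and inhibitors, Stfa3, a cysteine protease inhibitor, and Spink5, which restrains desquamating kallikreins, rose by 0.78 and 0.61 (1.13 and 0.28 against control week 8, where Stfa3 passed). Wfdc12, a whey acidic protein antiprotease, read 9.03, 9.80 and 9.46 in control week 1, 11.05, 11.86 and 11.65 at UV week 4 and 7.32, 7.60 and 7.97 in control week 8. The 3 groups did not overlap, and UV week 4 stood above both controls, by 2.09 (SE 0.41, adjusted p = 0.0126) and 3.89 (adjusted p = 0.000315). Gjb2, the gap junction protein connexin 26, fell by 1.32 (SE 0.26, adjusted p = 0.0153), and Padi1, which citrullinates keratins, by 1.27 (SE 0.28, adjusted p = 0.0278). Neither passed against control week 8 (-0.78 and -0.70). Leaving out array 333 alone removed the calls of Lce1g, Lce1f, Wfdc12, Gjb2 and Padi1, and leaving out array 334 those of Stfa3, Spink5, Lce1f, Wfdc12 and Padi1. Lce1f and Padi1 each lost the call in 5 of the 6 runs without 1 array, Gjb2 also without array 13 or 331, and Stfa3 also without array 13.

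Most interferon-stimulated genes lay above their control level and a few passed the test. Of 35 measured members 6 rose and none fell, with a median of 0.55. In 23 of them, against 12.3% of all genes, all UV week 4 arrays lay above all of control week 1. The risers were Irgm1 and Igtp, immunity-related GTPases, Oas1a and Oasl2 of the oligoadenylate synthetase family, Usp18, which removes the ubiquitin-like Isg15, and Ifit1, which binds foreign RNA. Ifit1 read 6.17, 5.35 and 6.16 in control week 1, 7.87, 8.17 and 7.19 at UV week 4 and 7.26, 5.92 and 6.24 in control week 8. Its difference was 1.85 (SE 0.44, adjusted p = 0.0459). Usp18 read 5.56, 5.60 and 6.01 against 7.04, 7.35 and 6.78 (1.34, SE 0.30, adjusted p = 0.0314). In control week 8, array 51 stood apart at 6.63 while the other 2 read 5.50 and 5.37. The same array was the high one for Ifit1, Oas1a and Oasl2. Against control week 8 no member passed, with a median of 0.37. Ifi27l2a had the largest difference, 2.26, with an adjusted p of 0.504.

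The 6 calls lay near the threshold. Leaving out 1 array at a time left 0 to 3 of them, with 0 without control array 13 or UV week 4 array 333, and 0 without arrays 12 and 333. With the beta-actin ratio as a covariate 10 members rose. Mean levels of the list ran from 6.90 to 7.49 in control week 1, from 7.77 to 8.12 at UV week 4 and from 7.35 to 7.87 in control week 8. They ran from 7.99 to 8.12 in UV week 2 and from 7.78 to 8.36 in UV week 6.

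All 3 Cxcr3 ligands rose. Cxcl10 read 5.05, 4.75 and 6.10 in control week 1 and 6.91, 7.38 and 7.21 at UV week 4 (1.87, SE 0.28, adjusted p = 0.00228). Cxcl9 read 6.63, 5.90 and 7.02 against 8.24, 8.68 and 8.39 (1.92, SE 0.45, adjusted p = 0.0434). Cxcl11 rose by 1.76 (SE 0.35, adjusted p = 0.0142), while its other, dimmer probe set gave 0.21 (adjusted p = 0.627). Cxcl10 was among the probe sets set aside by the controls rule. Cxcl9 lost its call without array 12, 13, 331, 333 or 334, and Cxcl11 without array 13, 333 or 334. That of Cxcl10 was lost only when arrays 12 and 333 were both left out. A pair of lymphocyte genes of the same list of 19 also rose. Icos, a costimulatory receptor of activated T cells, read 6.98, 6.38 and 6.86 against 7.75, 7.90 and 7.82, and control week 8 read 6.98, 6.88 and 6.62. It passed against control week 1 (1.08, SE 0.17, adjusted p = 0.00347) and control week 8 (1.00, adjusted p = 0.013). Its other probe sets gave 0.34 and 0.18 against control week 1 (adjusted p = 0.424 and 0.668). Gzma, a granule protease of cytotoxic cells, rose by 1.34 (SE 0.30, adjusted p = 0.033; 0.86 against control week 8, adjusted p = 0.239). The defining T cell genes did not pass: Cd3e differed by -0.15, Cd3d by 0.19, Cd3g by -0.43 and Cd8a by 0.32. No chemokine passed against control week 8, where Cxcl10 was nearest at 1.25 (adjusted p = 0.0538). Of the list, 2 to 5 members kept the call when 1 array was left out, the fewest without array 13, 333 or 334, and 1 without arrays 12 and 333.

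**Figure D4:**
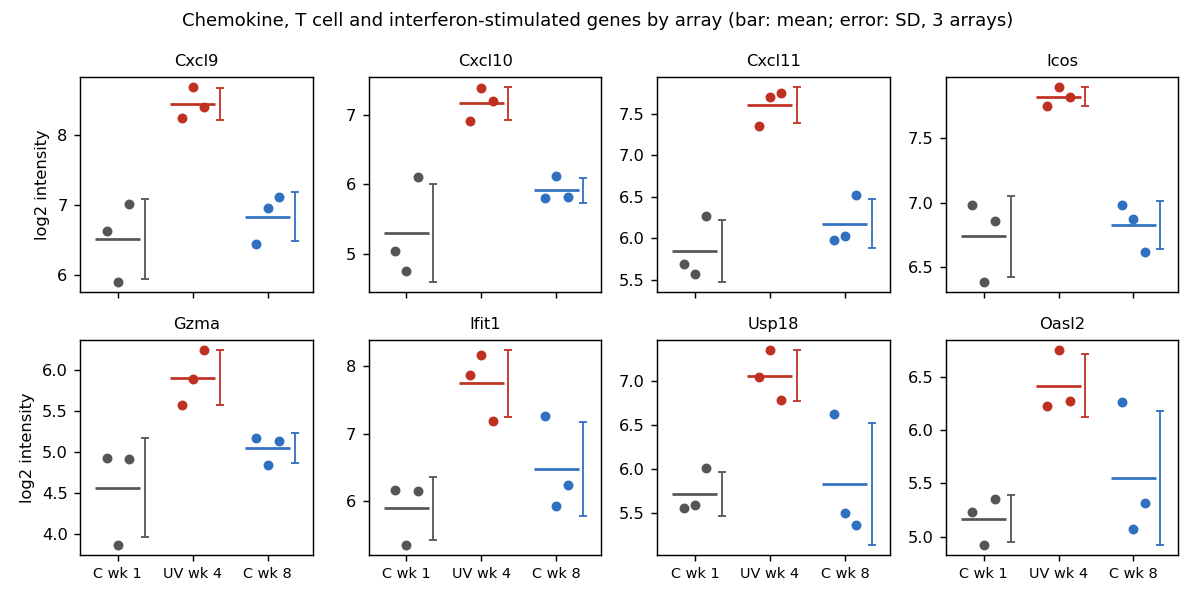
Log2 intensity of 8 chemokine, lymphocyte and interferon-stimulated genes on each array of control week 1, UV week 4 and control week 8; horizontal bars are means and vertical bars SD over 3 arrays. UV week 4 lies above control week 1 on every array, and array 51 of control week 8 overlaps UV week 4 in the Ifit1 and Oasl2 panels.

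Macrophage genes (23, median -0.01), mast cell genes (12, median -0.12), MHC class I genes (13, median 0.38) and Langerhans cell and MHC class II genes (16, median 0.18) had no changed member. Nlrc5, the activator of MHC class I genes, came nearest at 0.76 (adjusted p = 0.0546). H2-Eb1, an MHC class II chain, split within groups, with 9.66, 6.50 and 6.64 in control week 1 and 6.79, 11.34 and 10.39 at UV week 4. Its difference of 1.91 had an SE of 1.09. Il1r1, the interleukin-1 receptor, fell by 0.94 (adjusted p = 0.0226). Haptoglobin (Hp), an acute phase protein, fell by 1.13 (SE 0.19, adjusted p = 0.004), but control week 8 was as low (UV week 4 minus control week 8, 0.11). Ptgs2, the inducible cyclooxygenase, fell by 1.71 (SE 0.37, adjusted p = 0.0261), while its other probe set gave -0.10 (adjusted p = 0.881). Alox8, a lipoxygenase, fell by 1.38 (SE 0.21, adjusted p = 0.00281; -0.70 against control week 8, adjusted p = 0.166). Without array 13 or 333 the calls of Il1r1 and Ptgs2 were lost. That of Il1r1 was also lost without array 12, 331 or 334.

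Antibody genes set UV week 4 apart from control week 1 but not from control week 8. Jchain, which joins IgA and IgM into polymers, read 6.08, 4.53 and 5.74 in control week 1, 8.89, 7.26 and 8.28 at UV week 4 and 9.05, 8.56 and 8.31 in control week 8. The difference was 2.69 (SE 0.41, adjusted p = 0.00228) against control week 1 and -0.50 (adjusted p = 0.705) against control week 8. Igha, the IgA heavy chain, gave 2.09 (SE 0.38, adjusted p = 0.00873) and 0.02 (adjusted p = 0.991). The 2 older groups overlapped in both genes. Igha lost its call against control week 1 without array 331.

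Lipid genes of the epidermis moved upwards in part. Of 21 cholesterol biosynthesis genes 3 rose and none fell, with a median of 0.52. Hsd17b7, which acts late in sterol synthesis, read 10.59, 10.50 and 10.64 in control week 1 and 11.94, 11.85 and 11.53 at UV week 4 (1.19, SE 0.20, adjusted p = 0.00422). Lanosterol synthase (Lss) read 7.97, 8.06 and 7.92 against 9.04, 9.26 and 8.96 (1.10, SE 0.20, adjusted p = 0.00965). Other probe sets of Hsd17b7 gave 0.55 to 0.77 and those of Lss 0.57 and 0.85, without passing. Insig1, the sterol-sensing retention protein, rose by 0.87. Idi1 and Cyp51 passed at a probe set other than the one of highest mean (1.44 and 1.12). Control week 8 lay between, with Lss at 8.10, 8.80 and 8.67, and no member passed against it. The sterol response motif TCACNCCAC, searched on both strands, was in the same stretch of 0 of the 3 risers, 1 of 17 list members (Hmgcs1) and 1.22% of all genes.

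Of 25 ceramide and barrier lipid genes 4 rose, with a median of 0.36. Acer1, an alkaline ceramidase of the epidermis, read 10.52, 11.02 and 10.87 against 11.86, 11.95 and 11.85 (1.08, SE 0.18, adjusted p = 0.00529). Its other probe set gave 0.46 (adjusted p = 0.866). Cers4, a ceramide synthase, rose by 1.5 (SE 0.34, adjusted p = 0.0323). Sptlc1, a subunit of the enzyme that starts sphingolipid synthesis, rose by 0.65, and Cyp4f39, which hydroxylates very long fatty acids, by 1.06. None passed against control week 8. Leaving out 1 array at a time left 2 to 3 of the sterol calls and 1 to 2 of the ceramide calls, and without arrays 12 and 333 they were 1 and 0. Sebaceous gland genes had a median of 0.43 over 19 with no call. Olah, a fatty acid thioesterase, rose by 2.23 (SE 0.45, adjusted p = 0.0162), and Amacr, a racemase of branched fatty acids, by 2.03 (SE 0.39, adjusted p = 0.0118), and both lost the call without array 16, 333 or 334. Against control week 8 they gave 1.60 and 0.83, and neither passed.

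A few enzymes of detoxification and steroid metabolism were higher than in both controls. Gsto1, an omega class glutathione transferase, read 10.99, 10.97 and 10.93 in control week 1, 12.12, 12.16 and 12.27 at UV week 4 and 10.98, 11.04 and 10.97 in control week 8. Its SD within groups was far below the difference of 1.22 (SE 0.17, adjusted p = 0.00092; 1.19 against control week 8, adjusted p = 0.00293). The other probe set of Gsto1 gave 0.72 against control week 1 (adjusted p = 0.299). Gsto1 was the 1 changed gene of 30 antioxidant and glutathione genes. Cyp17a1, a steroid hydroxylase and lyase, read 7.53, 8.29 and 7.53 against 9.03, 9.76 and 9.72, with control week 8 at 6.46, 7.82 and 7.87. It rose by 1.72 (SE 0.38, adjusted p = 0.0314) and by 2.12 against control week 8 (adjusted p = 0.0152). The call was lost without array 12, 16, 333 or 334. Of 23 steroid, vitamin D and retinoid genes it was the 1 that rose, and Aldh1a2, which makes retinoic acid, was the 1 that fell, by 1.37 (SE 0.24, adjusted p = 0.00713; -0.56 against control week 8, adjusted p = 0.37). A pair of further enzymes, chosen after their values were seen, passed in both comparisons: Mgst2 (1.23 and 1.21), a microsomal glutathione transferase, and Cyp2b10 (1.01 and 1.37), a xenobiotic-induced cytochrome.

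**Figure D5:**
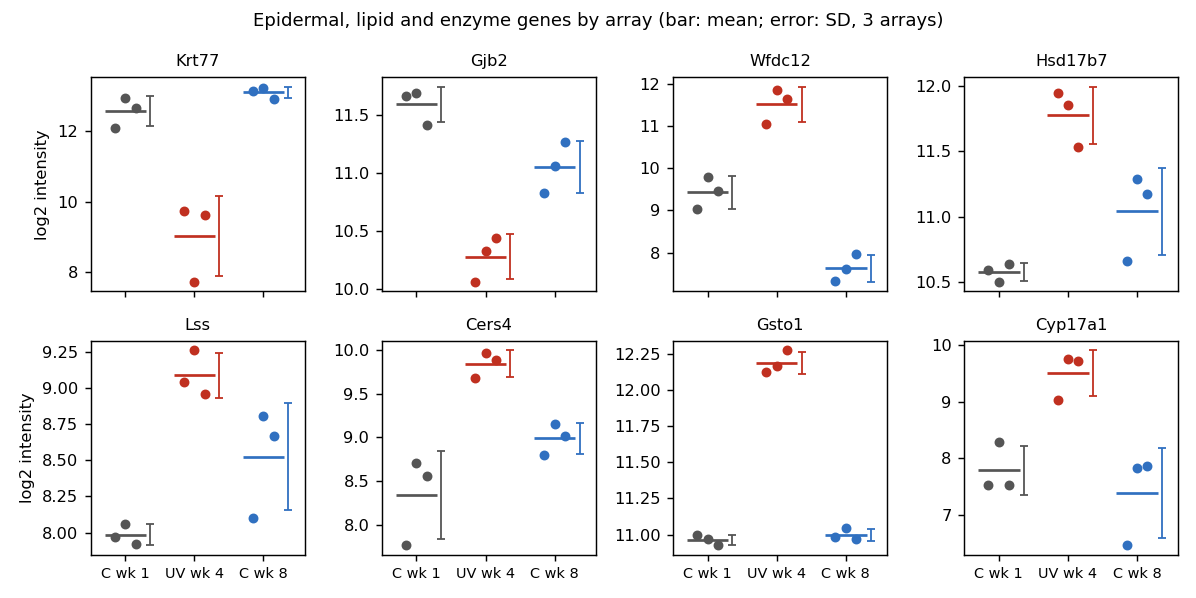
Log2 intensity of 8 epidermal, lipid and enzyme genes on each array of control week 1, UV week 4 and control week 8; horizontal bars are means and vertical bars SD over 3 arrays. Krt77 at UV week 4 lies below both controls, Wfdc12, Gsto1 and Cyp17a1 lie above both, and Hsd17b7, Lss and Cers4 have control week 8 between the other groups.

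Dermal matrix genes gave few calls. Of 28 collagens 2 fell, Col4a1 of the basement membrane (-1.11, SE 0.19, adjusted p = 0.00625) and Col15a1 (-0.69, SE 0.15, adjusted p = 0.0294). The other probe set of Col4a1 gave -0.59 (adjusted p = 0.0838). The list median was -0.30, and 26 of 28 lay below 0, against 7813 of 17403 over all genes. All 3 UV week 4 arrays lay below all 3 of control week 1 for 14 of the 28, against 11.5% of all genes. The same held for 10 of 23 genes of collagen processing and crosslinking, of which none passed the test. It held for 8 of 18 proteoglycans, 3 of 14 elastic fibre genes and 0 of 20 metalloproteinases and inhibitors. Col1a1, the main fibrillar collagen of the dermis, read 11.48, 12.10 and 11.64 against 9.98, 10.97 and 10.90, a difference of -1.12 that did not pass (adjusted p = 0.342). Col3a1 differed by -0.24 (adjusted p = 0.503) and elastin (Eln) by -0.22 (adjusted p = 0.839). Matrix metalloproteinases and their inhibitors had no change among 20, with a median of 0.10. The collagenase Mmp13 differed by 1.06 (adjusted p = 0.218), Mmp3 by 0.49 and Mmp9 by 0.03. Gpc6, a glypican, fell by 1.02, and Ltbp2, which binds elastic microfibrils, rose by 0.69 (adjusted p = 0.0141). Other probe sets of Gpc6 gave -0.16 to 0.19, without passing. No gene of the collagen, proteoglycan or elastic fibre lists passed against control week 8. There the collagen median was -0.22, and 27 of 28 lay below 0, against 7645 of 17403 over all genes. Against control week 1, Col4a1 was the collagen that held when any 1 array was left out. Neither Col4a1 nor Col15a1 held without arrays 12 and 333.

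Signalling genes with a call mostly fell. Of 19 FGF and IGF genes 3 fell: Fgf5, and the binding proteins Igfbp5 (-0.99, SE 0.19, adjusted p = 0.0103) and Igfbp7 (-0.53). Igfbp5 was also lower than in control week 8 (-1.25, adjusted p = 0.0047). The Wnt antagonist Sfrp4 fell by 0.99 and against control week 8 by 1.27 (adjusted p = 0.0057), and the Wnt receptor Fzd1 fell by 0.58. Tek, the angiopoietin receptor of endothelium, fell by 0.89 (adjusted p = 0.0444). Gadd45a, a p53 target, fell by 0.74 (adjusted p = 0.0479), the 1 changed gene among 22 p53 genes, whose median was 0.12. Cdkn1a, the p53-induced cell cycle inhibitor, differed by 0.62 (adjusted p = 0.454). DNA repair genes (26, median 0.08) had none. Nfil3, a repressor of the clock, fell by 1.00, and Cth, which makes cysteine, by 1.32. Psat1, of serine synthesis, rose by 0.75, and Egr2, an immediate early factor, by 0.69. Against control week 8, Fzd1, Gadd45a and Cth were not lower at an adjusted p of 0.05 or less. Neither Psat1 nor Egr2 was higher there. The calls of Tek, Gadd45a, Igfbp7, Fzd1, Nfil3, Psat1 and Egr2 each depended on at least 3 single arrays, 13, 331 and 333 among them, and Igfbp5 lost its call without array 13 or 334. Sfrp4 lost it without array 13, 16, 331 or 334, and Cth without array 13 or 333.

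Besides Krt77, the falls that the controls rule left included those of Cald1, Ret, Dmd and Klf9. Klf9, a zinc finger factor induced by glucocorticoids, read 6.36, 6.94 and 6.34 against 5.31, 5.11 and 5.20 (-1.34, SE 0.17, adjusted p = 0.000497), and control week 8 read 6.03, 6.34 and 6.03. Its probe set of highest mean gave -0.67 (adjusted p = 0.13). Further probe sets of Klf9 gave -0.91 (adjusted p = 0.0188) and -0.79 (adjusted p = 0.114), and 2 dimmer ones were above 0 (0.19 and 0.29). Cald1, the actin-binding caldesmon, fell by 1.48 at 1 probe set, with 4 others between -0.26 and 0.15. Ret, the receptor of the glial cell line-derived neurotrophic factors, read 8.40, 7.92 and 8.07 against 6.81, 6.33 and 6.97 (-1.42, SE 0.26, adjusted p = 0.00871), and lost its call without array 333. The other probe set of Ret gave -0.08 (adjusted p = 0.872). Lpar1, a lysophosphatidic acid receptor (-1.27), Sytl2, a vesicle tethering protein (-1.27), Tm4sf1, a tetraspanin-like membrane protein (-1.25), and dystrophin (Dmd, -1.39) fell too. Other probe sets of Dmd gave -0.36 and -0.37, and those of Lpar1 -0.72 and -0.07, without passing. Dmd kept the call in 7 of the 14 alternative settings and Lpar1 in 8, and both lost it without array 13, 331 or 333.

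Among rises, Retreg3, a receptor of endoplasmic reticulum turnover, read 4.13, 4.84 and 4.92 in control week 1, 6.26, 6.61 and 6.55 at UV week 4 and 4.78, 4.01 and 4.52 in control week 8. The difference was 1.85 (SE 0.26, adjusted p = 0.00109), and 2.04 against control week 8 (adjusted p = 0.00142), at 1 of its 3 probe sets. Tacr3, the neurokinin B receptor, rose by 1.4 (SE 0.23, adjusted p = 0.00368) from 5.80, 5.35 and 5.54 to 6.84, 7.21 and 6.83. Its other probe sets gave 0.64 and 0.09, without passing. Tcf23, a helix-loop-helix factor, rose by 1.52, and Cemip, which breaks down hyaluronan, by 1.32. Other probe sets of Cemip gave 0.12 and 0.13, without passing. Among probe sets set aside by the controls rule, C1qtnf3 (2.12), Panx3, a pannexin channel (1.84), Gbp8, a guanylate-binding protein (1.73), and Ang4, an antimicrobial ribonuclease (1.53), rose. Against control week 8 they gave 0.55, 0.92, 1.13 and 0.46, and none passed. The other probe sets of Panx3 and Ang4 gave 0.39 and 0.15 against control week 1, without passing. Retreg3, Tacr3, Panx3 and Ang4 kept the call in all 14 alternative settings, as did Klf9 and Cald1. Those of Tcf23, Cemip, C1qtnf3 and Gbp8 were lost without array 12 or 333. Tesc, Klf4, Saa3 and S100a3, whose fall is given above, were also measured by PCR in the study. By PCR it reported Saa3 as raised and Klf4, S100a3 and Tesc as lowered in its photoaged model. Its text names no UV week for the PCR. Tesc, a calcium-binding regulator of proton exchange, fell by 1.12 (SE 0.21, adjusted p = 0.00887). Its other probe set gave -1.28 (adjusted p = 0.0607). Klf4 (-0.28 and -0.90 at 2 probe sets) and Saa3 (-0.29) did not pass. In UV weeks 1, 2, 6 and 8 Saa3 differed from control week 1 by 0.57, 1.51, 1.25 and 1.54. Klf4 at its brighter probe set differed there by -1.32, -0.39, -1.1 and -1.61. No test of those weeks is given here. Isg15 and the Gsdmc family, measured by PCR as well, are not named here, since their probe sets were annotated to several genes or too dim to be kept.

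Control week 8 served as the second baseline for the 78 probe sets left by the controls rule. Of the 38 lower 11, and of the 40 higher 18, also had an adjusted p of 0.05 or less against it. At 2-fold as well, 8 and 15 remained. The 8 were Krt77, Cald1, Tm4sf1, Sema3d, Serinc1, Tesc, Agtr1a and Fermt2. The named ones among the 15 were Cyp2b10 (2 probe sets), Lhpp, Apol8, Gsto1, Mgst2, Tacr3, Tcf23, Cyp17a1 and Retreg3. The median difference of the 38 was -1.19 against control week 1 and -0.92 against control week 8. For the 133 lower probe sets set aside it was -2.85 and -1.27. Over all probe sets, 72 were lower (0.178%) and 28 higher (0.0691%) than in control week 8 at 2-fold. The 2 comparisons share the UV week 4 arrays.

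Few probe sets passed the threshold between UV week 4 and the neighbouring UV weeks. Against UV week 2, limma called 0 of 40540 probe sets (0%). By an unadjusted p under 0.05, 1122 lay lower and 1278 lay higher. Where nothing differs, a share of about 0.05 of the tested probe sets would meet that limit, so these counts are no count of real differences. Without array 334, 32 probe sets were lower. Between UV week 6 and UV week 4, 1 probe set was called (0.00247%), with 2220 lower and 2835 higher in UV week 6 when p was left unadjusted at 0.05. It was that of Cd207, or langerin, the lectin that marks Langerhans cells, the antigen-presenting cells of the epidermis. Cd207 read 8.62, 8.95 and 8.70 at UV week 4, close to 8.73, 8.90 and 9.02 in control week 1. Its mean was 8.03 (SD 0.38) in UV week 2, 8.76 (SD 0.18) at UV week 4 and 6.97 (SD 0.36) in UV week 6. The call was lost without array 331 or 334 of UV week 4 or array 441 of UV week 6.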

How the data were processed

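Total RNA of dorsal skin was hybridised to Affymetrix mouse genome arrays, 3 per group by the labels. The authors processed the scans in Expression Console 1.4. The Methods name MAS5 and the submitters' notes RMA, and the deposited intensity values are on a linear scale. Here values below 1 were set to 1 and log2 was taken. Probe sets at or above the 20th percentile of an array on at least 1 of 21 arrays were kept (40540 of 45101, without 64 control probe sets), of which 32317 had 1 gene symbol in the platform annotation. All 21 arrays entered 1 limma 3.58.1 fit (R 4.3.3; lmFit, eBayes, 14 residual degrees of freedom) with Benjamini-Hochberg adjustment over all kept probe sets. The fit was tested on simulated data. The Methods give 3 mice to each of 6 groups while the labels hold 7 groups, and no source ties an array to a mouse, so p-values measure the spread between arrays, and their number limits the precision. Named genes were the 10 largest changes in each direction among called probe sets and among those set aside by the controls, up to 5 members per list by p, and the PCR genes with a probe set of their own. Members and lists were chosen with earlier results of these data known.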

Additional observations from a re-analysis of the deposited data

Results flagged for a closer look

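Cd207 was picked out because UV week 6 differed from UV week 4 in the test of that difference. The log2 difference was -1.784 (limma, adjusted p = 0.0399), and all 3 UV week 6 arrays lay below all 3 UV week 4 arrays. It was the 1 probe set called between these weeks.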

How the results depend on the processing

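No paired analysis was possible because the groups share no array numbers. Against control week 1, 38 probe sets were called lower and 40 higher. With the beta-actin ratio as a covariate these were 106 and 66, and with 1 probe set per gene 22 and 26. Without the exclusion by the controls they were 171 and 73. With adjusted p alone and the exclusion kept they were 168 and 103, and with neither the fold threshold nor the exclusion 313 and 146. With the mean of both controls as baseline 164 were lower. A pair of alternatives was added after seeing the data. With the Gapdh ratio as a covariate 116 were lower, and without arrays 12 and 333 there were 36 lower and 11 higher. Leaving out 1 array gave 18 to 106 lower (106 without array 12, 18 without array 13 or 333) and 16 to 30 higher (16 without array 333). Against control week 8, 72 were lower and 28 higher. The beta-actin covariate gave 210 and 59, and leaving out 1 array 19 to 80 (19 without array 55) and 12 to 20 (12 without array 333). Against UV week 2 the covariate gave 6 lower, and leaving out 1 array 0 to 32 lower and 0 to 0 higher. For UV week 6 against UV week 4 it gave 11 lower and 2 higher, and leaving out 1 array 0 to 3 lower and 0 to 1 higher. List members lower (69) and higher (27) became 104 and 65 with the beta-actin covariate, and 28 and 3 without arrays 12 and 333. With the Gapdh ratio 45 were higher. Leaving out 1 array gave 45 to 67 lower and 8 to 18 higher. No called difference changed sign. Of 97 named genes past the test, 26 kept the call under all 14 settings, 51 lost it without array 333 and 64 without arrays 12 and 333. The cause of these movements was not tested.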

Other observations

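Krt8 and Krt18, keratins of simple epithelia and of Merkel cells, were chosen after their values were seen and are on no list. Krt8 was lower at UV week 4 than in control week 1 at each of its 3 probe sets, by 1.90, 1.91 and 1.49 log2 units (limma, adjusted p = 0.00998, 0.00787 and 0.0223), and Krt18 by 1.62. Both were among the probe sets set aside because the controls differed.

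Several genes differed from control week 8 while lying near control week 1, and these too were chosen after their values were seen. Ccl20, a chemokine for Ccr6-bearing lymphocytes and dendritic cells, was lower than in control week 8 by 1.69 and differed from control week 1 by 0.19. Fosl1, an AP-1 subunit, was lower by 1.12 against 0.14, and Il7r, the interleukin-7 receptor, by 1.18 against 0.01. For the clock genes Arntl and Dbp, the differences from control week 8 were -1.02 and 1.32, and those from control week 1 were -0.08 and 0.19.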
